A study of Homo sapiens with 12 samples.

Results

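Nicotinamide adenine dinucleotide (NAD) is the redox carrier that cells build along several routes, and 10 genes of that chemistry were followed here out of 13951 genes listed in RNA-seq of a prostate cancer cell line. The 10 genes are NMNAT2 and its paralogs NMNAT1 and NMNAT3, the salvage genes NAMPT, NMRK1 and NAPRT, the de novo gene QPRT, the NAD synthetase gene NADSYN1, the NAD kinase gene NADK, and SARM1. All 10 were listed in every library and were found by gene symbol. NMNAT2 was chosen by its measured CPM, which fell in the cells with added MEIS1 in these same libraries. The NMNAT2 values in that comparison are therefore given as a description and are not tested. The other 9 were chosen by their place in NAD chemistry, with earlier results of these data known.

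The cells were CWR22Rv1, an established human prostate cancer line, sequenced 48 h after plating in 4 groups of 3 libraries, all kept under puromycin. Control cells carried Cas9 with no guide RNA, LV-MEIS1 cells expressed MEIS1 from a lentiviral vector, HOXB13ko cells had HOXB13 targeted with CRISPR/Cas9, and HOXB13ko-LV-MEIS1 cells were HOXB13ko cells given the MEIS1 vector. MEIS1 is a homeodomain transcription factor and HOXB13 is a HOX partner of it in the prostate. The HOXB13ko line was a pool of several knockout clones, and each group was a single derived line, so replicates measure the spread within a line, which may be technical, and the derivation of a line cannot be told apart from its genotype. Whether LV-MEIS1 cells also carried Cas9 is not given in the sources used here.

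NAD is made from nicotinamide by NAMPT, from nicotinamide riboside by NMRK1, from nicotinic acid by NAPRT, and from tryptophan by a pathway whose last dedicated step is QPRT. All of these routes pass through an NMNAT enzyme, which joins the mononucleotide to an adenylate. The 3 enzymes are known for different places in the cell: NMNAT1 in the nucleus, NMNAT2 at the Golgi and in the cytosol, and NMNAT3 in mitochondria. NMNAT2 is a short-lived protein best known from neurons, where it restrains SARM1, an enzyme that destroys NAD and drives axon degeneration.

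Levels are in CPM, read counts scaled to the size of the library, as deposited. Differences are given on the scale of log2(CPM + 0.5) with the standard error (SE) of a limma fit over all 12 libraries. A gene was called where its difference exceeded 1.5-fold by limma's treat test at an adjusted p (Benjamini-Hochberg over 13951 genes) under 0.05. Limma's eBayes test against no change is given beside it.

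By mRNA, the targeted genes gave an uneven check of the labels. MEIS1 averaged 4.25 CPM in Control and 47.4 CPM in LV-MEIS1, and 3.56 and 29.7 CPM in the libraries labelled HOXB13ko and HOXB13ko-LV-MEIS1. HOXB13 mRNA averaged 196 CPM in Control and 151 CPM in LV-MEIS1 (log2 difference -0.37 ± 0.07, eBayes adjusted p = 4.9e-04, not called by treat). It was higher than in Control, at 327 and 354 CPM, in the libraries labelled HOXB13ko and HOXB13ko-LV-MEIS1. The knockout label is therefore used below as a label and not as a measured loss of transcript. The study's methods report that the knockout was checked at the protein level, by western blot of each clone, which mRNA levels do not measure. Of 8 prostate luminal markers, 8 were listed, with summed levels of 2809 to 2927 CPM in Control, 1951 to 1996 in LV-MEIS1, 2980 to 3008 in HOXB13ko and 2963 to 3072 in HOXB13ko-LV-MEIS1. Of 6 fibroblast markers, 3 were listed, with sums of 23.4 to 27.0 CPM in Control, 34.9 to 41.0 in LV-MEIS1, 32.6 to 32.8 in HOXB13ko and 28.6 to 34.9 in HOXB13ko-LV-MEIS1. COL1A1 was called higher in LV-MEIS1 (14.5 to 32.8 CPM as means, treat adjusted p = 2.5e-04), while PDGFRB and ACTA2 passed only eBayes, downward, and the part of these markers in the results was not tested. In bulk RNA, fewer cells of a kind and less RNA per cell cannot be told apart.

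The RefSeq starts of NMNAT2 are shown first because this gene carries the main difference and because MEIS1 and HOXB13, the factors that were changed, read known letters. NMNAT2 (ENSG00000157064) lies on the minus strand of chromosome 1, from 183248237 to 183418380 (GRCh38), and RefSeq (GRCh38.p14) gives it a start at the outer end of the gene and another within an intron, 114 kb downstream. The 250 bases before each start were searched on both strands for TGACAG, letters bound by MEIS proteins, and for TTTAT, letters favoured by posterior HOX proteins. Matches are in capitals, and ATAAA is TTTAT on the other strand.
NMNAT2 outer start, chr1:183418381-183418630, minus strand: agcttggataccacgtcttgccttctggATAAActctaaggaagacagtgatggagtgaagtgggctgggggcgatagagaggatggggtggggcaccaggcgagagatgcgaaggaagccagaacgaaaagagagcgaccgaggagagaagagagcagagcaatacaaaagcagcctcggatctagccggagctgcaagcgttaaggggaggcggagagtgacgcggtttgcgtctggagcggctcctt
NMNAT2 internal start, chr1:183304875-183305124, minus strand: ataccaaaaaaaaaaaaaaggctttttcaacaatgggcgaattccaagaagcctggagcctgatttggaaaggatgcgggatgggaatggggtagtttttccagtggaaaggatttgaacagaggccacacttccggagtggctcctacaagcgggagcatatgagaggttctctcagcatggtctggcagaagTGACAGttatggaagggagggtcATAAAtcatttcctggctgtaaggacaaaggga

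The outer window held TTTAT once, 222 bases before the start, and no TGACAG. The internal window held TGACAG 56 bases before its start and TTTAT 33 bases before it. Among 35116 RefSeq windows of the same length, 13.0% held TGACAG, 32.7% held TTTAT and 4.74% held both. Of 13 windows searched for 8 of the 10 genes, 2 held TGACAG (the internal NMNAT2 window and a QPRT window) and 5 held TTTAT. NAPRT was left out of this search, and NMRK1 had no window. The NMNAT3 windows overlap and share matches to TTTAT, and the QPRT windows overlap too, so the windows are not all separate. A match is a description of letters, and the deposited gene-level values do not say which NMNAT2 start was used.

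NMNAT2 mRNA stood at 3 levels in the 4 groups. It was 44.3, 45.0 and 41.1 CPM in Control, 0.592, 0.910 and 1.30 CPM in LV-MEIS1, 6.34, 6.96 and 6.94 CPM in HOXB13ko, and 6.71, 5.42 and 7.41 CPM in HOXB13ko-LV-MEIS1. Every Control library was above every other library, every LV-MEIS1 library was below every other library, and the 2 groups with the HOXB13ko label overlapped between them.

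As means, NMNAT2 was 43.5 ± 2.07 CPM (SD, n = 3) in Control, 0.935 ± 0.36 in LV-MEIS1, 6.75 ± 0.35 in HOXB13ko and 6.51 ± 1.01 in HOXB13ko-LV-MEIS1. These are 2.15%, 15.5% and 15.0% of the Control mean in the 3 derived groups. On the log2 scale LV-MEIS1 was -4.97 ± 0.16 (SE) from Control and HOXB13ko was -2.60 ± 0.16 from Control. Those comparisons share the Control libraries and the first one chose the gene, so neither is tested.

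The low level in LV-MEIS1 rested on few reads. From the steps between low CPM values, the libraries held about 11, 19 and 35 NMNAT2 reads in LV-MEIS1, against about 762 to 1065 in Control, 114 to 200 in HOXB13ko and 135 to 186 in HOXB13ko-LV-MEIS1. These read numbers are approximate, and the LV-MEIS1 values were above the 0.105 to 0.175 CPM that 3 reads are worth. The CV within LV-MEIS1 was 38.1%, and 4.77% in Control.

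In the comparison that did not choose the gene, added MEIS1 left NMNAT2 mRNA without a detected difference. HOXB13ko-LV-MEIS1 was -0.06 ± 0.16 (SE) from HOXB13ko on the log2 scale (95% interval -0.39 to 0.28), with an adjusted p of 1.0 by treat and 0.900 by eBayes in limma. That interval does not reach a change of 1.5-fold in either direction. Few genes differed in this comparison: 0.00717% of all genes passed treat and 0.0502% passed eBayes. MEIS1 mRNA differed by 2.90 ± 0.07 (log2) between the same 6 libraries. The LV-MEIS1 minus Control difference less the HOXB13ko-LV-MEIS1 minus HOXB13ko difference was -4.91 ± 0.22 for NMNAT2, given without a test. MEIS1 mRNA differed by 3.33 ± 0.07 between LV-MEIS1 and Control, more than in the pair with the knockout label. The level of added MEIS1 and that label cannot be told apart here.

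**Figure D1:**
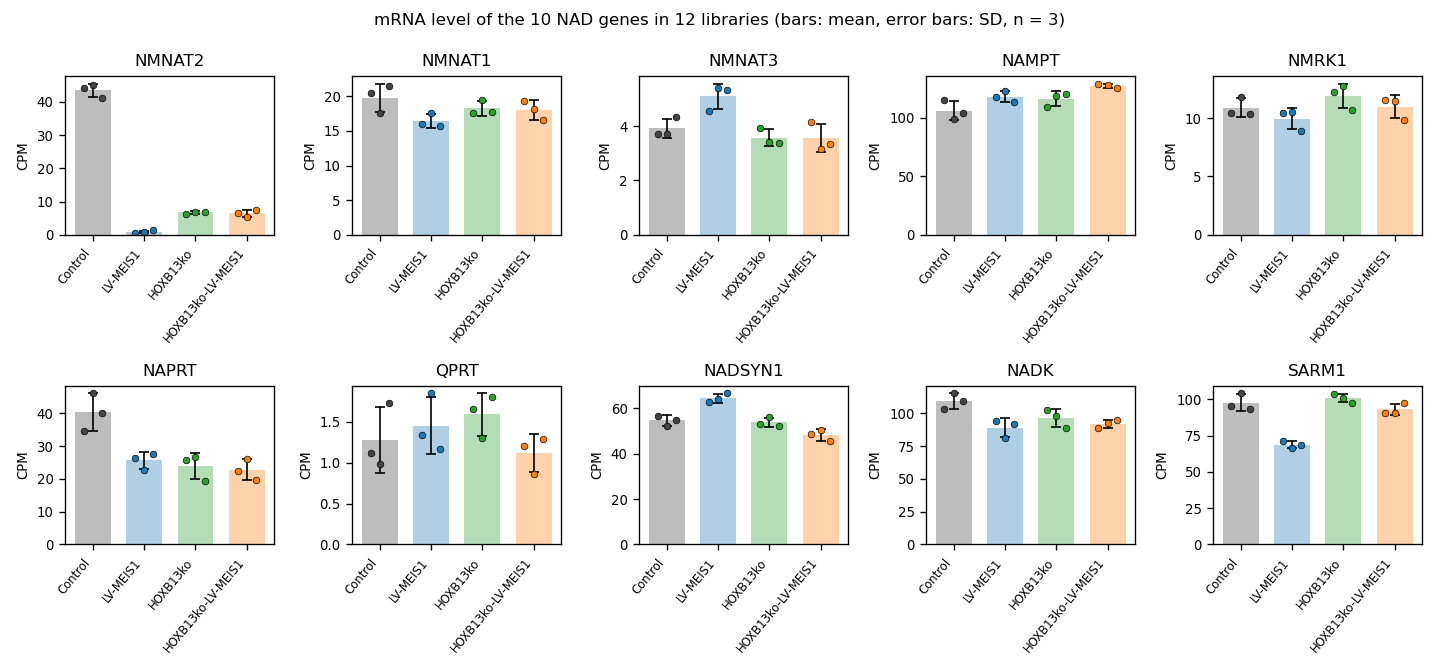
mRNA level in CPM (y axis, from 0, with its own scale in each panel) of the 10 NAD genes in the 4 groups (x axis). Points are libraries, bars the mean and error bars the SD (n = 3). NMNAT2 falls from 41.1 to 45.0 CPM in Control to 0.592 to 1.30 in LV-MEIS1, and no other panel shows a change of that size.

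Per kb of the canonical transcript, NMNAT2 mRNA was the most abundant of its family in Control and the least abundant in every derived group. In CPM, without regard to length, its means in the 2 groups labelled HOXB13ko (6.75 and 6.51) stayed above those of NMNAT3 (3.58 and 3.55). Per kb it made up 49.0% to 55.8% of the summed NMNAT level in Control, 1.64% to 3.37% in LV-MEIS1, 14.9% to 16.5% in HOXB13ko and 13.4% to 18.3% in HOXB13ko-LV-MEIS1. The summed level of the family averaged 15.2 CPM per kb in Control and 7.09, 7.91 and 7.79 CPM per kb in the 3 derived groups, in the same order. These shares carry the NMNAT2 values that chose the gene and are a description.

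**Figure D2:**
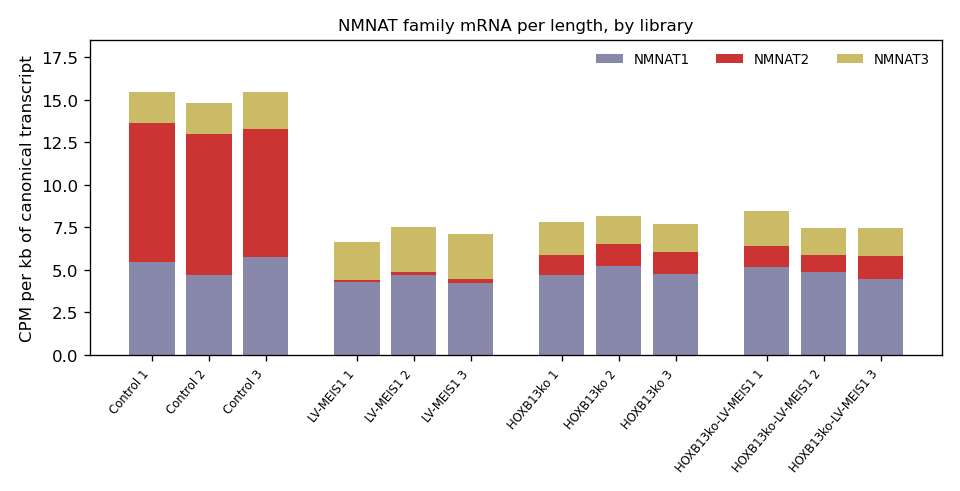
CPM per kb of canonical transcript (y axis, from 0) in each of 12 libraries (x axis, replicate number after the group), stacked by NMNAT gene. The NMNAT2 part shrinks in every derived group, while the NMNAT1 group means stay between 4.40 and 5.31 CPM per kb.

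NMNAT1 (ENSG00000173614, chromosome 1, 9943428 to 9985501, plus strand), the nuclear enzyme, differed little. It had 20.5, 17.6 and 21.4 CPM in Control, 16.0, 17.6 and 15.8 in LV-MEIS1, 17.6, 19.5 and 17.8 in HOXB13ko, and 19.4, 18.2 and 16.6 in HOXB13ko-LV-MEIS1. Its LV-MEIS1 libraries lay below those of Control, with the closest pair at 17.6 CPM each, and the log2 difference was -0.26 ± 0.09 (adjusted p = 1.0 by treat and 0.0295 by eBayes). The eBayes call was lost without Control replicate 1 or 3 or LV-MEIS1 replicate 1 or 3, at adjusted p of 0.0758 to 0.123.

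NMNAT3 (ENSG00000163864, chromosome 3, 139560180 to 139678017, minus strand), the mitochondrial enzyme, was the least abundant paralog per kb in Control. Its levels were 3.72, 3.72 and 4.32 CPM in Control, 4.54, 5.39 and 5.33 in LV-MEIS1, 3.93, 3.42 and 3.39 in HOXB13ko, and 4.14, 3.17 and 3.35 in HOXB13ko-LV-MEIS1. LV-MEIS1 was the higher group, with no overlap with Control and a log2 difference of 0.34 ± 0.13 (adjusted p = 1.0 by treat and 0.0452 by eBayes). Leaving out any of 7 single libraries, 4 of them Control replicate 1 or 2 or LV-MEIS1 replicate 2 or 3, took the eBayes adjusted p to between 0.0507 and 0.137. Exons of DTWD1P1, on the same strand, and of COPB2-DT, on the opposite strand, overlap NMNAT3, so reads may be shared between them. Neither was listed, and their part in the NMNAT3 values was not tested. Per kb, NMNAT3 was 1.94 CPM in Control and 2.51 in LV-MEIS1, so neither paralog rose by the amount that NMNAT2 lacked (7.99 CPM per kb in Control and 0.172 in LV-MEIS1).

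Across the 9 genes other than NMNAT2, none was called in any comparison. In LV-MEIS1 against Control, 0 of 9 were called by treat (0 also at an unadjusted p under 0.05), where 3.99% of all genes were called. By eBayes 7 of 9 passed, 3 higher (NMNAT3, NAMPT, NADSYN1) and 4 lower (NMNAT1, NAPRT, NADK, SARM1), where 44.5% of all genes passed. For 6 of 9 the 2 groups did not overlap, against 51.3% of all genes. Their median log2 difference was -0.12, and that of all genes was 0.01.

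In HOXB13ko against Control, 0 of 9 were called by treat, again 0 at an unadjusted p under 0.05, against 1.41% of all genes. NAPRT alone passed eBayes, against 32.9% of all genes. Without Control replicate 1, or without HOXB13ko replicate 1, 3 of 9 passed, NADK (adjusted p = 0.0347 and 0.0401) and NAMPT (0.0183 and 0.0458) besides NAPRT. The groups did not overlap for 2 of 9 genes, NAPRT and NADK, against 44.9% of all genes. The median of the 9 was -0.02, and -0.002 over all genes.

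In HOXB13ko-LV-MEIS1 against HOXB13ko, with NMNAT2 now counted, 0 of 10 passed either limma test, against 0.00717% of all genes by treat and 0.0502% by eBayes. At an unadjusted p under 0.05, 0 of 10 passed treat and 2 passed eBayes. The groups did not overlap for 3 of 10 genes, NAMPT, NADSYN1 and QPRT, against 21.1% of all genes. The median was -0.06, and 0.01 over all genes.

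The difference between the 2 MEIS1 effects was tested by an interaction in the same fit. By treat 0 of 9 passed (0 at an unadjusted p under 0.05), where 2.93% of all genes did. By eBayes 3 of 9 passed, NADSYN1 upward and NAPRT and SARM1 downward, where 34.2% of all genes did.

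**Figure D3:**
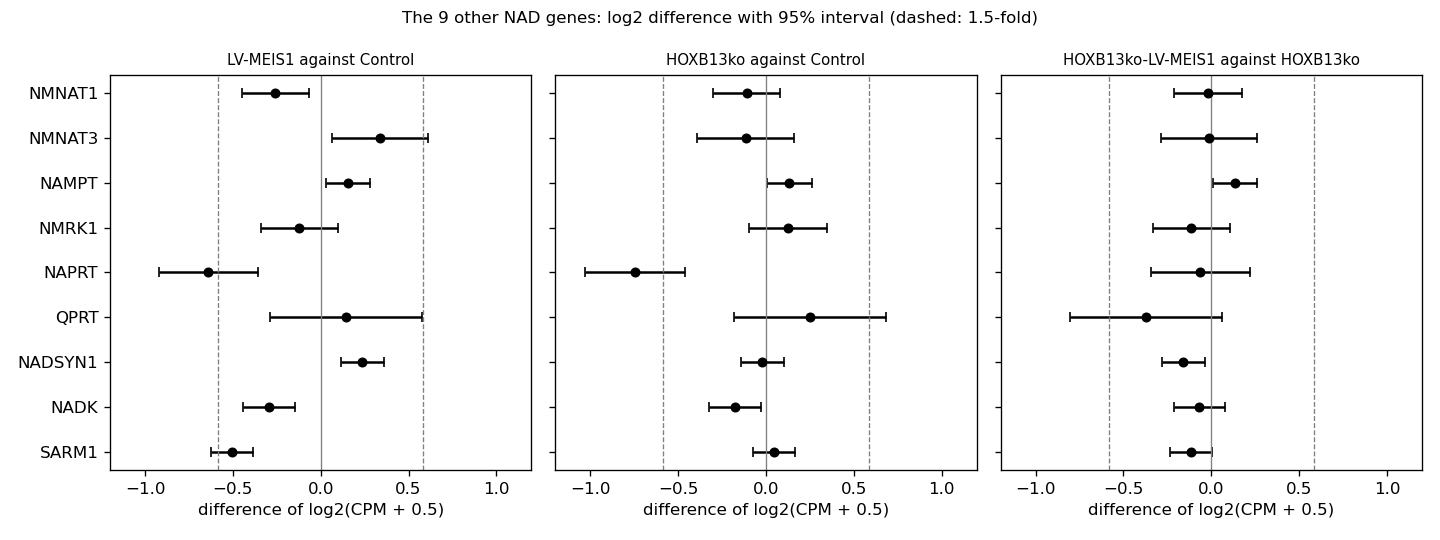
Difference of log2(CPM + 0.5) (x axis) for the 9 genes other than NMNAT2 (y axis) in 3 comparisons, as points with 95% intervals from the limma fit; dashed lines mark 1.5-fold. NAPRT lies furthest from 0 in the first 2 panels, at -0.64 and -0.75, and QPRT in the last, at -0.37.

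NAPRT (ENSG00000147813), which starts NAD synthesis from nicotinic acid, was lower in all 3 derived groups. Its levels were 34.7, 46.1 and 40.2 CPM in Control, 26.3, 22.8 and 27.7 in LV-MEIS1, 25.8, 26.5 and 19.4 in HOXB13ko, and 22.5, 26.1 and 19.8 in HOXB13ko-LV-MEIS1. The lowest Control library stood above the highest of the other 9. LV-MEIS1 was -0.64 ± 0.13 (log2) from Control (eBayes adjusted p = 0.0014) and HOXB13ko was -0.75 ± 0.13 from Control (eBayes adjusted p = 8.4e-04), both at an adjusted p of 1.0 by treat. HOXB13ko-LV-MEIS1 differed from HOXB13ko by -0.06 ± 0.13 (eBayes adjusted p = 0.866). The difference of the MEIS1 effects was -0.58 ± 0.19 (eBayes adjusted p = 0.0285), and the loss of any of 5 single libraries (Control replicate 2 or 3, LV-MEIS1 replicate 2, HOXB13ko replicate 3, HOXB13ko-LV-MEIS1 replicate 2) ended that call, at adjusted p of 0.0515 to 0.0725.

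NAMPT (ENSG00000105835, chromosome 7, 106248298 to 106285966, minus strand), the rate-limiting enzyme of salvage from nicotinamide, was close in level in all groups. It had 115, 99.4 and 104 CPM in Control, 118, 123 and 114 in LV-MEIS1, 109, 119 and 121 in HOXB13ko, and 129, 128 and 126 in HOXB13ko-LV-MEIS1. Control and LV-MEIS1 overlapped, with a log2 difference of 0.16 ± 0.06 (eBayes adjusted p = 0.0444, and 0.0519 to 0.178 without any of 8 single libraries). Processed copies of NAMPT exist in the genome, and reads divided between near-identical copies make its level less certain.

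NMRK1 (ENSG00000106733, chromosome 9, 75060573 to 75088217, minus strand), the nicotinamide riboside kinase, ranged from 8.89 to 12.8 CPM over the 12 libraries. Its group means were 10.9 CPM in Control, 9.95 in LV-MEIS1, 11.9 in HOXB13ko and 11.0 in HOXB13ko-LV-MEIS1. No comparison of NMRK1 passed a test, and its log2 differences lay between -0.12 and 0.12.

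QPRT (ENSG00000103485, chromosome 16, 29663279 to 29698699, plus strand), the last dedicated enzyme of the de novo route, was barely expressed, from 0.862 to 1.85 CPM over the 12 libraries. Its SE of 0.20 (log2) was the largest of the 10 genes. HOXB13ko-LV-MEIS1 was -0.37 ± 0.20 from HOXB13ko (eBayes adjusted p = 0.405). Exons of SPN overlap QPRT on the same strand, so reads may be shared between them. SPN averaged 3.13 CPM in Control and 2.25 to 2.74 CPM in the other groups.

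NADSYN1 (ENSG00000172890, chromosome 11, 71453109 to 71524107, plus strand) makes the amide of NAD in the routes that begin with nicotinic acid and tryptophan. It had 56.8, 52.2 and 55.1 CPM in Control, 62.8, 64.1 and 66.7 in LV-MEIS1, 53.3, 56.1 and 52.4 in HOXB13ko, and 48.7, 50.5 and 45.5 in HOXB13ko-LV-MEIS1. The LV-MEIS1 libraries were above all others and the HOXB13ko-LV-MEIS1 libraries below all others. The log2 difference with added MEIS1 was 0.24 ± 0.06 against Control (eBayes adjusted p = 0.0037) and -0.16 ± 0.06 against HOXB13ko (eBayes adjusted p = 0.225). The difference between those effects was 0.40 ± 0.08 (eBayes adjusted p = 0.0020, and 1.0 by treat).

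NADK (ENSG00000008130, chromosome 1, 1751232 to 1780457, minus strand) phosphorylates NAD to NADP in the cytosol. Its levels were 103, 115 and 109 CPM in Control, 94.5, 80.8 and 92.1 in LV-MEIS1, 102, 98.3 and 89.0 in HOXB13ko, and 88.9, 92.4 and 94.7 in HOXB13ko-LV-MEIS1. Control was the highest group and overlapped none of the others. LV-MEIS1 differed from Control by -0.29 ± 0.07 (log2; eBayes adjusted p = 0.0032) and HOXB13ko by -0.18 ± 0.07 (eBayes adjusted p = 0.0597).

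SARM1 (ENSG00000004139, chromosome 17, 28364356 to 28404049, plus strand), the NAD hydrolase that NMNAT2 holds in check in neurons, was low in LV-MEIS1. It had 95.7, 104 and 93.3 CPM in Control, 71.2, 66.2 and 68.8 in LV-MEIS1, 104, 101 and 97.6 in HOXB13ko, and 90.6, 90.6 and 97.7 in HOXB13ko-LV-MEIS1. The LV-MEIS1 libraries were below all 9 others, while the remaining groups lay between 90.6 and 104 CPM. LV-MEIS1 differed from Control by -0.50 ± 0.06 (log2; eBayes adjusted p = 5.2e-06, and 1.0 by treat), HOXB13ko from Control by 0.05 ± 0.06 (0.554) and HOXB13ko-LV-MEIS1 from HOXB13ko by -0.12 ± 0.06 (0.343). The difference between the MEIS1 effects was -0.39 ± 0.08 (eBayes adjusted p = 0.0020).

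SARM1 shares exon sequence with SLC46A1 on the opposite strand, and strand was not used when reads were assigned. SLC46A1 averaged 55.3 CPM in Control and 48.1 in LV-MEIS1 (log2 difference -0.20 ± 0.06, eBayes adjusted p = 0.0142), and its part in the SARM1 values was not tested. Per kb, SARM1 mRNA was 1.14 to 1.23 times NMNAT2 mRNA in Control, 27.9 to 63.6 times in LV-MEIS1, 7.45 to 8.66 times in HOXB13ko and 6.98 to 8.85 times in HOXB13ko-LV-MEIS1. That ratio moved mainly with NMNAT2, whose level chose it, and is a description.

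Around these 10 genes, a list of 58 others in 6 groups was followed, of which 42 were listed. By treat, LV-MEIS1 cells had 2 called higher and 0 lower than Control, against the 3.99% of all genes, and 17 higher and 5 lower passed eBayes (52.4% of the 42, where 44.5% of all genes passed). In HOXB13ko against Control 1 was called higher and 0 lower, where 1.41% of all genes were called, and 10 higher and 4 lower passed eBayes (33.3%, where 32.9% of all genes passed). In HOXB13ko-LV-MEIS1 against HOXB13ko 0 passed either test, where 0.00717% of all genes passed treat and 0.0502% passed eBayes. The median log2 differences of the 42 were 0.01, 0.02 and -0.01 in these comparisons, and those of all genes 0.01, -0.002 and 0.01.

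The turnover group held the largest of those changes. MYCBP2, a subunit of the ubiquitin ligase that is known to mark NMNAT2 protein for degradation in neurons, rose in HOXB13ko. It had 102, 88.5 and 95.3 CPM in Control, 80.1, 115 and 96.4 in LV-MEIS1, 349, 432 and 458 in HOXB13ko, and 346, 317 and 297 in HOXB13ko-LV-MEIS1. All 6 libraries with the knockout label were above all 6 others, and Control and LV-MEIS1 overlapped. HOXB13ko differed from Control by 2.10 ± 0.12 (log2; treat adjusted p = 1e-06, and at most 1.6e-05 under 20 alternatives), and LV-MEIS1 from Control by 0.02 ± 0.12 (eBayes adjusted p = 0.922).

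The other 5 listed members of the turnover group, FBXO45, SKP1, ZDHHC17, MAP3K12 and MAP3K13, were not called. SKP1, ZDHHC17, MAP3K12 and MAP3K13 passed eBayes upward in LV-MEIS1, where 23.2% of all genes passed upward and 21.3% downward. MAP3K12, the axon injury kinase DLK, had the highest difference of them, from 24.7 to 41.3 CPM as means (log2 0.73 ± 0.12, eBayes adjusted p = 1.6e-04).

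Of 10 uptake and salvage genes 6 were listed, and NMRK2, NNMT, SLC5A8 and SLC22A13 were not. In LV-MEIS1 3 passed eBayes upward and 2 downward, beside 23.2% and 21.3% of all genes, and the group's median log2 difference was 0.005. NT5E and AOX1 were called, higher. PNP (log2 -0.44, eBayes adjusted p = 2e-05) and SLC12A8 (-0.20, eBayes adjusted p = 0.0443), named after their values were seen, were the 2 that passed downward. NT5E, the cell-surface nucleotidase CD73, had 0.988, 1.12 and 0.925 CPM in Control, 3.15, 3.28 and 2.48 in LV-MEIS1, 1.94, 2.51 and 2.03 in HOXB13ko, and 2.13, 2.09 and 2.59 in HOXB13ko-LV-MEIS1. Control was below all other libraries, and the log2 difference in LV-MEIS1 was 1.19 ± 0.15 (treat adjusted p = 0.0198). The treat call was lost without Control replicate 1 or 3 or LV-MEIS1 replicate 1 or 2, at adjusted p of 0.0571 to 0.109.

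AOX1, the aldehyde oxidase that turns methylated nicotinamide into excreted pyridones, was highest in LV-MEIS1. It had 3.55, 3.33 and 2.20 CPM in Control, 8.91, 8.95 and 9.70 in LV-MEIS1, 2.10, 2.65 and 2.67 in HOXB13ko, and 1.90, 2.93 and 2.67 in HOXB13ko-LV-MEIS1. The LV-MEIS1 libraries were above all 9 others, which overlapped. The log2 difference in LV-MEIS1 was 1.48 ± 0.17 (treat adjusted p = 0.0024), and it was 0.001 ± 0.17 in HOXB13ko-LV-MEIS1 against HOXB13ko (eBayes adjusted p = 0.998). The difference between those effects was 1.48 ± 0.24 (treat adjusted p = 0.0422), and that call was lost in 8 of the 12 fits that left out a library (Control replicate 3, any LV-MEIS1 replicate, HOXB13ko replicate 2 or 3, and HOXB13ko-LV-MEIS1 replicate 1 or 3), at adjusted p of 0.0584 to 0.115.

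The groups that consume or handle NAD had no called gene. Of 16 PARPs and tankyrases, which spend NAD on ADP-ribose, 15 were listed, and 7 passed eBayes upward and 1 downward in LV-MEIS1, beside the 23.2% and 21.3% of all genes. Of 9 sirtuins and NAD glycohydrolases, 7 were listed and 1 passed eBayes, downward, beside 44.5% of all genes in either direction. It was SIRT6, a nuclear deacylase, named after its values were seen, with 19.5, 24.7 and 23.2 CPM in Control and 11.2, 10.5 and 12.4 in LV-MEIS1 (log2 -0.95 ± 0.11, adjusted p = 0.0657 by treat and 9.9e-06 by eBayes).

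Of 8 genes for NADP, transport and repair, 6 were listed and 3 passed eBayes upward in LV-MEIS1, beside 23.2% of all genes. NNT, the mitochondrial transhydrogenase, also named after its values were seen, went from 62.7 ± 3.94 CPM in Control to 103 ± 1.5 in LV-MEIS1 (SD, n = 3), a log2 difference of 0.72 ± 0.06 (adjusted p = 0.38 by treat and 2.3e-07 by eBayes). Of 8 kynurenine genes only AFMID and KYNU were listed, and AFMID passed eBayes downward in LV-MEIS1 (-0.71 ± 0.12, adjusted p = 2.3e-04). TDO2, IDO1, IDO2, KMO, HAAO and ACMSD were not listed in these filtered tables.

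Genes near NMNAT2 on chromosome 1 did not share its levels. Among listed protein-coding neighbours, RGS16, NPL, DHX9 and LAMC1 on the one side and ARPC5, RGL1, COLGALT2 and TSEN15 on the other, within 644 kb of it, no gene was called by treat in any comparison (adjusted p of 1 throughout). Their log2 differences between LV-MEIS1 and Control ran from -0.68 (RGL1) to 0.42 (RGS16). By eBayes, LAMC1 passed upward (adjusted p = 7.4e-05) and RGL1 and COLGALT2 downward (adjusted p = 0.0062 and 5.6e-04). LAMC1, a laminin gene 103 kb away, went from 228 to 295 CPM as means. Between HOXB13ko and Control these neighbours ran from -0.22 (LAMC1) to 0.51 (RGL1).

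The 5 genes whose levels were most like those of NMNAT2 over the 12 libraries were CPLX2, UNC13A, MYO1A, SRRM4 and CDH6, ranked among 13901 genes of at least 1 CPM on average. Pearson's correlation of log2(CPM + 0.5) was 0.991 for CPLX2, 0.988 for UNC13A, 0.987 for MYO1A, 0.985 for SRRM4 and 0.985 for CDH6. The points share 4 groups and their libraries, so the correlations mostly restate the group levels and carry no p.

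CPLX2, a complexin of synaptic vesicles, averaged 8.72 CPM in Control, had LV-MEIS1 entries of 0.0553, 0 and 0 CPM, and averaged 1.70 and 1.69 CPM in HOXB13ko and HOXB13ko-LV-MEIS1. UNC13A, a vesicle priming factor, averaged 65.9, 22.4, 42.5 and 38.3 CPM in the same order of groups. SRRM4, a neural splicing factor, averaged 27.8, 2.10, 10.0 and 8.66 CPM. MYO1A, an unconventional myosin, averaged 12.6, 1.81, 5.47 and 5.25 CPM, and CDH6, a cadherin, 48.8, 3.12, 17.5 and 13.0 CPM. All 5 were highest in Control and lowest in LV-MEIS1.

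The most opposite genes were CNTN1 (-0.988), SLC22A23 (-0.981), PCDHB5 (-0.979), EDN1 (-0.975) and CLIC4 (-0.974). CNTN1, a neural adhesion molecule, averaged 0.592 CPM in Control, 14.9 in LV-MEIS1, 3.68 in HOXB13ko and 4.33 in HOXB13ko-LV-MEIS1. Among the other 9 NAD genes the correlation with NMNAT2 ran from -0.52 (NAMPT) to 0.77 (NADK, rank 815 of 13901).

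**Figure D4:**
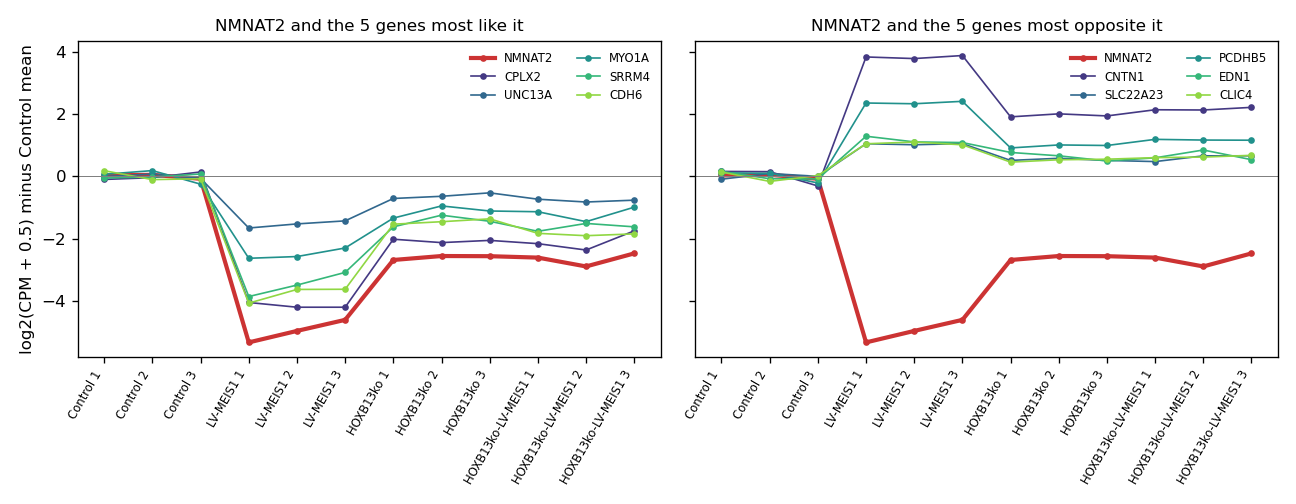
log2(CPM + 0.5) minus the Control mean (y axis) in each of 12 libraries (x axis), for NMNAT2 (thick line) with the 5 genes most like it (left) and most opposite to it (right); lines join libraries for legibility only. In both panels LV-MEIS1 lies furthest from Control and the 2 groups labelled HOXB13ko lie between.

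Some markers of neuronal and neuroendocrine cells were lower in the groups where NMNAT2 was low. Of 10 such markers 4 were listed (CHGB, SYP, ENO2 and TUBB3), while CHGA, NCAM1, INSM1, RBFOX3 and ELAVL4 were among those not listed. Their summed level was 262 to 286 CPM in Control, 182 to 193 in LV-MEIS1, 198 to 216 in HOXB13ko and 203 to 221 in HOXB13ko-LV-MEIS1. CHGB, SYP and TUBB3 were called lower in LV-MEIS1, CHGB and SYP in HOXB13ko, and none in HOXB13ko-LV-MEIS1 against HOXB13ko, where 3.99%, 1.41% and 0.00717% of all genes were called. ENO2, which made up most of the sum, was not called in any comparison and averaged 187, 163, 168 and 173 CPM in the 4 groups. TUBB3 was not called in HOXB13ko (treat adjusted p = 0.297). SYP, a synaptic vesicle protein gene, averaged 16.2, 1.74, 3.93 and 4.0 CPM in the 4 groups, and the part of these markers in the NMNAT2 values was not tested.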

How the data were processed

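RNA-seq values of 12 libraries were used, as tables of one group each. Per the study's methods and the labels, the authors trimmed reads with Trimmomatic 0.38 and assigned them to GRCh38 transcripts with kallisto 0.43.1. They summed estimated counts to genes, removed low genes and normalised in edgeR 3.22.2, and deposited CPM. No count test was applied, because the deposited values are CPM and not counts. Of values under 1 CPM, 47.8% to 60.6% were whole multiples of a read (within 0.1 of a step). Of 13993 rows, 42 exact repeats were removed, leaving 13951 genes. Listed CPM summed to 940564 to 992328 per library, and depth, estimated from steps between low values, was about 17200000 to 28700000 reads, in which 3 reads are worth 0.105 to 0.175 CPM.

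Groups came from the sample titles. log2(CPM + 0.5) was fitted in limma 3.58.1 (R 4.3.3) with a mean per group over 12 libraries and a trended prior. Treat against 1.5-fold gave the calls and eBayes the test against no change, both Benjamini-Hochberg adjusted over all genes. The script was tested on simulated data. Differences with NMNAT2 in the comparisons that share Control were left untested. Named genes are the 10 members, listed genes called by treat, the 5 nearest in correlation with NMNAT2 at either end, and the 5 nearest listed neighbours on each side; some genes of these lists are not reported here. The members and lists were chosen with earlier results of these data known. Per-kb values used GENCODE canonical transcript lengths, and sequences came from RefSeq (GRCh38.p14). Alternatives were pseudocounts of 0.1 and 1, a mean of at least 1 CPM, 3 scalings, a replicate block, an adjusted p under 0.01, only the libraries compared, and leaving out each library.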

Additional observations from a re-analysis of the deposited data

Results flagged for a closer look

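The effect of added MEIS1 differed for some genes between the lines without and with the HOXB13ko label, by the interaction in the limma fit. MEIS1 mRNA itself differed in that interaction, by 0.44 ± 0.11 (log2, eBayes adjusted p = 0.0063). The level of added MEIS1 thus cannot be told apart from the label. By treat 0 of the 9 tested NAD genes and 1 of the 42 listed pathway genes passed, where 2.93% of all genes did. By eBayes 3 of the 9 and 18 of the 42 (42.9%) passed, where 34.2% of all genes did. NAPRT had a difference of -0.58 (log2; eBayes adjusted p = 0.0285, treat adjusted p = 1.0). SARM1 had a difference of -0.39 (eBayes adjusted p = 0.0020, treat adjusted p = 1.0). NADSYN1 had a difference of 0.40 (eBayes adjusted p = 0.0020, treat adjusted p = 1.0). AOX1 had a difference of 1.48 (treat adjusted p = 0.0422, from 0.0288 to 0.145 over 19 alternatives).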

How the results depend on the processing

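Of 864 alternative values of the 10 NAD genes, 829 were classed as unchanged, 11 as called only in the alternative, 20 as reversed in sign and 4 as moved. Unchanged meant the same direction and side of the threshold, or for untested NMNAT2 differences a shift below the residual SD between replicates. Leaving out a library outside a comparison, or changing only the test or its adjusted p limit, could not change the log2 difference. The 829 therefore include values that were fixed in advance. No gene of the 9 or 10 was called by treat under any alternative that kept that test. Against no change (eBayes), 7, 1 and 3 members passed in LV-MEIS1 against Control, HOXB13ko against Control and the difference of the MEIS1 effects, and 22, 14 and 18 pathway genes. Over the other alternatives those member counts ran from 4 (only the libraries compared) to 7, from 1 to 3 (without Control replicate 1 or HOXB13ko replicate 1) and from 2 to 3.

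NMNAT2 in LV-MEIS1 against Control was -5.45 with a pseudocount of 0.1 and -4.54 with 1, the added constant weighing more at low CPM. NMNAT2 in HOXB13ko-LV-MEIS1 against HOXB13ko ran from -0.15 to 0.061 with a library left out, positive without HOXB13ko-LV-MEIS1 replicate 2.

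Pathway genes called in LV-MEIS1 fell from 2 to 1 with a pseudocount of 1, at an adjusted p under 0.01 and with only the libraries compared, and were 1 to 3 with a library left out. In the difference of the MEIS1 effects the call fell from 1 to 0 under quantile scaling and at an adjusted p under 0.01, and was 0 to 1 with a library left out. Replicate numbers did not pair the libraries (correlations of same-numbered deviations from -0.21 to 0.04); with a replicate block that count was also 0, the other counts by treat were as before, and the eBayes calls of NAMPT and NMNAT3 in LV-MEIS1 were lost (adjusted p = 0.0758 and 0.0672).

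Signs turned for small differences. In HOXB13ko-LV-MEIS1 against HOXB13ko, quantile scaling gave 0.0079 for NMNAT1 and 0.078 for NMNAT3, and leaving out libraries gave -0.070 to 0.041 for NMNAT1, -0.11 to 0.054 for NMNAT3 and -0.20 to 0.035 for NAPRT. NADSYN1 in HOXB13ko against Control ran from -0.053 to 0.0070. In the difference of the MEIS1 effects NAMPT ran from -0.024 to 0.080 and NMRK1 from -0.081 to 0.067, and equal sums gave NMRK1 0.030. The cause was not tested.

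Of the 5 genes most like NMNAT2, 4 were shared at a minimum of 5 CPM and 1 by Spearman's correlation, and of the most opposite 5 and 0. About 11 to 35 reads limit NMNAT2 in LV-MEIS1.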
